A study of Mus musculus with 24 samples.

Results

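Glycolysis and the response to low oxygen were followed through 38 genes in co-cultures of mouse macrophages and spleen lymphocytes. The genes were taken by symbol from the table of counts per Ensembl gene: 17 glycolytic enzymes, 7 genes of glycolytic transport and regulation, 3 genes of oxygen sensing, and 11 targets of the hypoxia-inducible factor (HIF) that lie outside glycolysis. All 38 were found among the 55487 genes of the table, and all 38 were among the 14099 genes with enough counts to be tested. Aldoa matched 2 identifiers, of which the one with nearly all counts was used. Glycolysis splits glucose into pyruvate in the cytosol, and lactate dehydrogenase turns pyruvate into lactate, which monocarboxylate transporters export. HIF-1α is made continuously and destroyed after prolyl hydroxylases mark it in the presence of oxygen, so that it accumulates when oxygen falls. In macrophages HIF-1α also accumulates after inflammatory stimuli, and it binds the promoters of most glycolytic genes and of genes for blood vessel growth, mitophagy and collagen modification.

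The macrophages were grown from bone marrow and cultured with spleen lymphocytes of mice that bore B16-F10-OVA tumours, a melanoma line that carries the model antigen ovalbumin. They were Tmem175-/- or WT. Tmem175 encodes an ion channel of the lysosome. Per genotype there were 4 groups of 3 libraries each: antigen of B16-F10-OVA tumour cells with IL-1β at 500 pg/ml, the antigen with IL-18 at 500 pg/ml, the antigen alone, and no antigen. Poly(A) RNA of the whole co-culture was sequenced, so the genotype belongs to the macrophages and every library holds the RNA of both cell kinds. In such bulk samples fewer cells of a type and less RNA per cell cannot be told apart. The labels do not say whether replicates were separate cultures or animals, so the p-values measure only the spread between these libraries, which may be technical.

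The libraries held 17744540 to 24898552 counts. Tmem175 was at 7.61 to 9.24 CPM (counts scaled to library size with TMM factors) in the 9 Tmem175-/- libraries with antigen against 12.8 to 16.3 in the 9 WT libraries with antigen, and at 14.1 to 15.03 against 24.4 to 26.1 CPM without antigen, so its transcript was lower in every knockout group but not lost. For 11 of the 12 Tmem175-/- samples the label's genotype entry carries a different gene number than the title, with numbers that run on from sample to sample. Their grouping here follows the titles, which name Tmem175 in all 12. The 6 macrophage markers summed to 5502 to 9444 CPM in the 24 libraries, whereas the 6 T cell markers summed to 8.04 to 15.2 CPM and the 5 B cell markers to 7.93 to 18.9 CPM. Melanoma and erythroid markers reached at most 0.615 and 0.746 CPM summed over 6 genes each, and no gene of either list had enough counts to be tested.

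In all 6 groups with antigen, the library numbered 2 had the lowest mean level of the glycolytic enzymes. It was the lowest of its group for 26 to 33 of the 38 genes, whereas it was the lowest for 34.0% to 37.7% of all genes tested. Without antigen it was instead the highest of its group for 21 of 38 genes in Tmem175-/- and for 26 in WT co-cultures. Of all genes tested, it was the highest for 34.5% and 40.2% in these groups. The markers of fibroblasts were lowest in the library numbered 2 in 7 of the 8 groups, for example at 15.2 CPM against 51.5 and 41.0 CPM in the other two Tmem175-/- libraries with antigen and IL-1β. Whether this explains the spread of the 38 genes was not tested, and counts are given below also without the 8 libraries numbered 2, an alternative added after the data were seen.

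**Figure D1:**
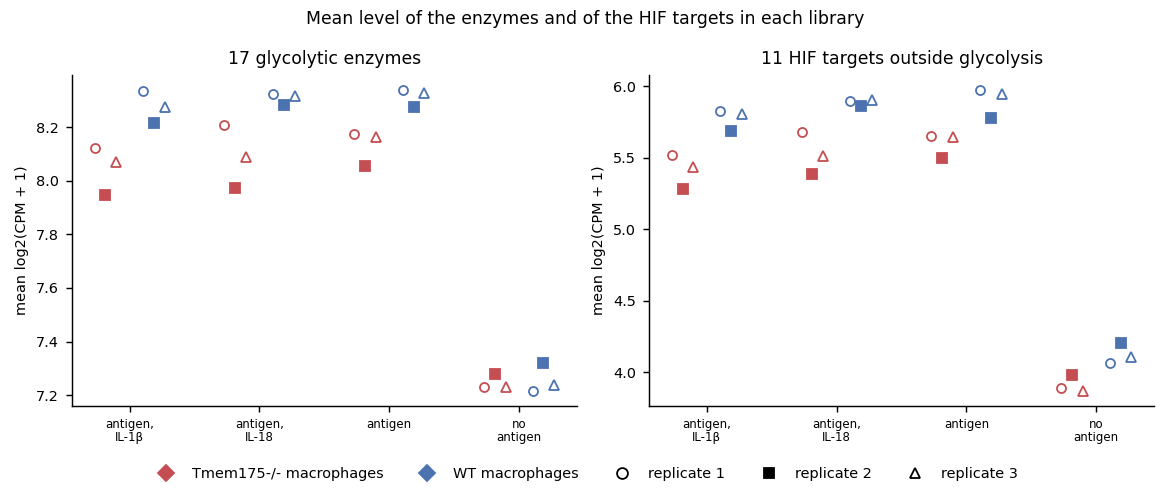
Mean of log2(CPM + 1) over the 17 glycolytic enzymes (left) and the 11 HIF targets outside glycolysis (right) in each of the 24 libraries, with Tmem175-/- in red and WT in blue. Filled squares mark the library numbered 2, which has the lowest mean of the enzymes in each of the 6 groups with antigen, and every library with antigen lies above every library without.

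HIF binds DNA at the hypoxia response element, whose core is ACGTG or GCGTG. Of the 38 genes, 36 had an entry in RefSeq's promoter table (build GRCm38.p6, 250 bases before to 50 bases after the start); Slc2a3 and Ndrg1 did not. They had 54 promoters, of which 42 (77.8%) held ACGTG or GCGTG on either strand, against 43.8% of the 32851 promoters in the table. The share was 75% of 28 enzyme promoters, 87.5% of 8 promoters of transport and regulation, 100% of 3 of oxygen sensing and 73.3% of 15 of HIF targets outside glycolysis. A match is a description of the letters and not evidence of binding. The promoters of an enzyme and 3 HIF targets that rose with antigen and hold several cores are shown with that of Eno2, which fell with antigen and is 1 of 3 genes with no core in any window. The other two, Tpi1 and Gpi1, rose with antigen, while Hk3, which fell in both genotypes, and Pfkfb4, which fell in Tmem175-/- co-cultures, hold 1 core each. Capitals mark each core on either strand, where CACGTG counts as 2 matches because it holds ACGTG on both strands, and overlapping matches are joined.
Ldha: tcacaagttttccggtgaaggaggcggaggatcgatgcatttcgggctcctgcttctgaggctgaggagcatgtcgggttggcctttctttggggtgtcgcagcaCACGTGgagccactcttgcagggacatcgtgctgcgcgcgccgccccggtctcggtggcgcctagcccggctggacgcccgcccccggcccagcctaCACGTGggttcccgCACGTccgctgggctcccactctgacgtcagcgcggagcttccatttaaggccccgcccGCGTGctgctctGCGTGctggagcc
Bnip3: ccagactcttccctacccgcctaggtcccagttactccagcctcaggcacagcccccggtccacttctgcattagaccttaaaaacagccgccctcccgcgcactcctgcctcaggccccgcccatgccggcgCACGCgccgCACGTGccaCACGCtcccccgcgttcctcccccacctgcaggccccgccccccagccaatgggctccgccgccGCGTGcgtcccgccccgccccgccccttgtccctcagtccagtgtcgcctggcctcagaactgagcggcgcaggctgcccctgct
Ankrd37: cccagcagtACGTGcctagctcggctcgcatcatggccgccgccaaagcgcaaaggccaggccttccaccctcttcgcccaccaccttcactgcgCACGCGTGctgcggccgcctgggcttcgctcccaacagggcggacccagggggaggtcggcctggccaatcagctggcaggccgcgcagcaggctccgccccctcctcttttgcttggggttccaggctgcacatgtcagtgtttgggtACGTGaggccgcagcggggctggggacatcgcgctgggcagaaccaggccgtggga
P4ha2: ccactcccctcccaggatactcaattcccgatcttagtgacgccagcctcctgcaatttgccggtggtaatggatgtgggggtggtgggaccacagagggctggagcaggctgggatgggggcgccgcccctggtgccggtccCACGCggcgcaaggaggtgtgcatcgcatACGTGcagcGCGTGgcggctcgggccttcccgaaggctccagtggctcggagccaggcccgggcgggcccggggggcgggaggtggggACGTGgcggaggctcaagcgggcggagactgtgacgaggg
Eno2: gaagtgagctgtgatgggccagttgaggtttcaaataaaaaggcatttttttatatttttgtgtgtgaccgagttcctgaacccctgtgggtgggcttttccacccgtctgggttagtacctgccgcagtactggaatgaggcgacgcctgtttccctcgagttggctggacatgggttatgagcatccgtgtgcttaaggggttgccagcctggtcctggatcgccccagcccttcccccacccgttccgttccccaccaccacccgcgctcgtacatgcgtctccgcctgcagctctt
The window of Ldha, which has 2 promoters in the table, is chr7:46845554-46845853 on the plus strand and holds 7 matches, and that of Bnip3 is chr7:138909457-138909756 on the minus strand with 5. Those of Ankrd37 (chr8:45999801-46000100, minus strand) and P4ha2 (chr11:54100674-54100973, plus strand) hold 4 each, and that of Eno2 (chr6:124769624-124769923, minus strand) holds 0.

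Antigen raised most of the 38 genes in both genotypes, from the glucose transporter to the lactate exporter and the HIF targets. In Tmem175-/- co-cultures 30 genes rose and 4 fell, and in WT co-cultures 33 rose and 3 fell, with an adjusted p under 0.05 in edgeR's quasi-likelihood test (Benjamini-Hochberg adjustment over all 14099 genes, as for each adjusted p below). Over all genes tested, antigen changed 68.3% in Tmem175-/- co-cultures (33.8% higher, 34.6% lower) and 68% in WT co-cultures (33.5% higher, 34.5% lower). The median log2 fold change of the 38 genes was 1.34 in Tmem175-/- and 1.36 in WT co-cultures, whereas that of all genes was 0.0057 and -0.0032. Falls were few: Hk3, Eno2 and Slc2a3 in both genotypes and Pfkfb4 in Tmem175-/- co-cultures. Without the libraries numbered 2, 35 of the 38 genes were called in Tmem175-/- and 37 in WT co-cultures, and 65.8% and 64.1% of all genes. Both comparisons were made between groups that also differ in their markers of other cells: with antigen the 8 neutrophil markers summed to 421 to 471 CPM in Tmem175-/- and 378 to 463 in WT co-cultures, against 1255 to 1345 and 1208 to 1353 CPM without, and the 8 cell division genes to 370.3 to 412 and 286 to 308 against 561 to 590.2 and 705 to 715 CPM. Other lists had higher sums with antigen. Those of macrophages summed to 8234 to 8973 CPM with antigen in Tmem175-/- and 8691 to 9022 in WT co-cultures, against 5502 to 5795 and 5693 to 5848 without (3 of 6 higher and 2 lower in each genotype). Dendritic cell markers summed to 9.53 to 10.8 and 21.5 to 25.7 CPM with antigen against 1.76 to 2.899 and 6.23 to 6.74 without, in the same order of genotypes, with 3 and 2 of 4 tested higher. Fibroblast markers summed to 39.9 to 48.04 and 120.3 to 182 CPM against 12.5 to 28.4 and 27.8 to 97.4, with 2 and 4 of 6 higher. B cell markers summed to 15.1 to 16.05 and 16.6 to 18.4 CPM against 7.93 to 9.74 and 10.7 to 11.5 (4 and 3 of 5 higher). T cell markers summed to 11.7 to 14.5 and 9.80 to 11.9 against 8.04 to 10.1 and 9.51 to 10.9 (4 and 0 of 6 higher). Plasma cell markers had lower sums, 261 to 285 and 154 to 166 CPM against 399.8 to 452 and 177 to 189. Of these 5, 3 and 1 were lower and 1 and 0 higher. NK cell markers were lower for 1 and 3 of 4. The part of these cells in the antigen response was not tested.

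**Figure D2:**
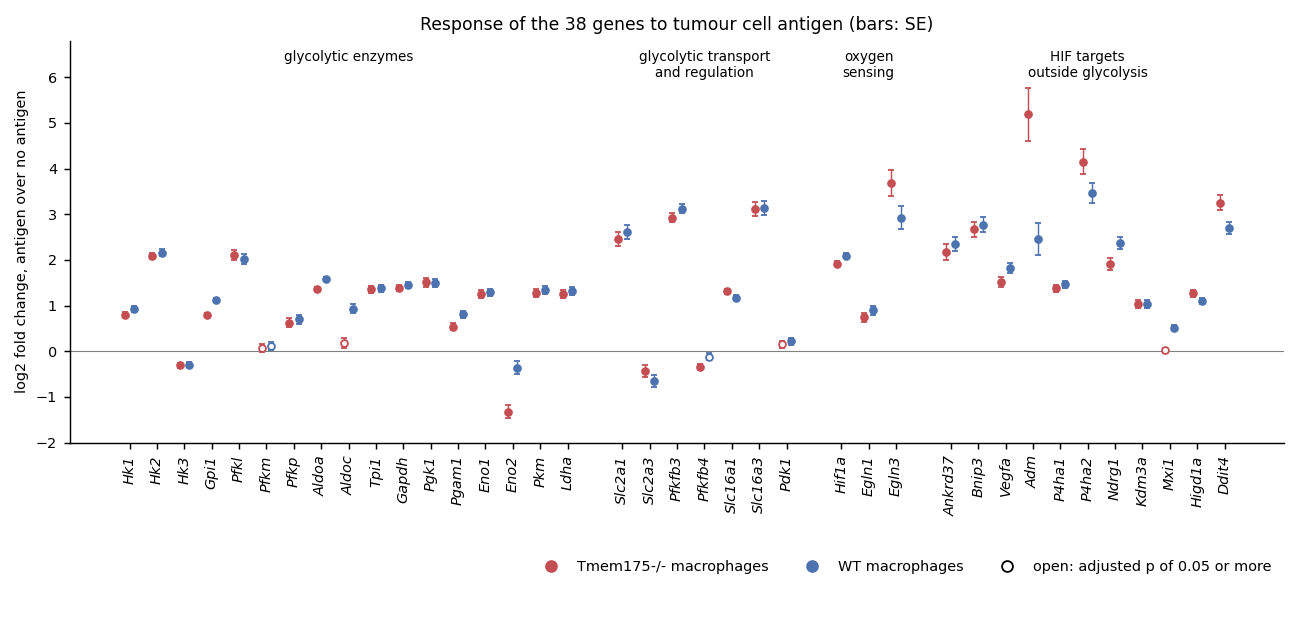
Log2 fold change of antigen over no antigen for each of the 38 genes, with its standard error, in Tmem175-/- (red, left of each pair) and WT co-cultures (blue), ordered by role. Filled points passed an adjusted p of 0.05, and the points of Hk3, Eno2, Slc2a3 and Pfkfb4 lie below 0 (Pfkfb4 in WT as an open point).

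Glucose enters the cell mainly through Slc2a1 (GLUT1) and Slc2a3 (GLUT3). Slc2a1 had 212, 184 and 212 CPM in Tmem175-/- libraries with antigen against 39.4, 35.7 and 35.7 without, and 237, 199 and 223 CPM in WT libraries with antigen against 31.98, 41.2 and 34.9 without. The groups with and without antigen did not overlap, and the log2 fold change was 2.46 ± 0.15 (SE) in Tmem175-/- and 2.61 ± 0.15 in WT co-cultures (adjusted p 8.43e-11 and 3.89e-11). Slc2a3 went the other way. It had 12.3, 14.4 and 13.9 CPM in Tmem175-/- libraries with antigen against 19.9, 17.3 and 17.2 without, and 15.4, 13.8 and 18.2 CPM in WT libraries with antigen against 22.9, 25.1 and 26.03 without. Slc2a3 fell by 0.43 and 0.65 on the log2 scale (adjusted p 0.00788 and 1.28e-04), and here too no library with antigen reached one without. The call in Tmem175-/- co-cultures was lost in 1 of 12 alternatives. Per kilobase of the longest transcript, Slc2a1 made up 96.6% ± 0.494 (SD, n = 3) of the 2 transporters in Tmem175-/- libraries with antigen and 79.6% ± 0.474 without, and 96.4% ± 0.423 and 73.6% ± 2.05 in WT libraries.

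Hexokinases, which trap glucose by phosphorylation, moved in different directions. Hk2 had 341, 293 and 328 CPM in Tmem175-/- libraries with antigen against 70.9, 84.7 and 70.9 without, and 383, 341 and 361 CPM in WT libraries with antigen against 81.3, 81.7 and 79.2 without. That is a rise of 4.25-fold and 4.48-fold (log2 fold change 2.09 ± 0.072 and 2.16 ± 0.072, adjusted p 1.69e-16 and 9.69e-17). Hk1 rose less, by 0.81 and 0.93 on the log2 scale, and Hk3 fell by 0.31 and 0.29 (adjusted p 8.03e-05 and 1.43e-04). Hk3 nevertheless had the highest level per kilobase of the 3. Its share was 59.2% ± 0.968 in Tmem175-/- libraries with antigen and 82.8% ± 0.658 without, and 54.8% ± 0.750 and 81.3% ± 0.714 in WT libraries, while that of Hk2 was 24.6% ± 0.958 and 6.58% ± 0.167, and 27.6% ± 0.702 and 7.46% ± 0.0676.

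At the phosphofructokinase step, which commits glucose to glycolysis, the liver type Pfkl rose most. It had 142, 124 and 138 CPM in Tmem175-/- libraries with antigen against 29.9, 33.8 and 30.6 without, and 165, 147 and 153 CPM in WT libraries with antigen against 32.6, 44.6 and 37.05 without. The groups did not overlap (4.29-fold and 4.07-fold, adjusted p 4.53e-12 and 5.87e-12). The platelet type Pfkp rose by 0.63 and 0.70 on the log2 scale, and the muscle type Pfkm, with 0.075 and 0.12, did not pass the test. Per kilobase, Pfkl held 62.1% ± 0.853 of the 3 in Tmem175-/- libraries with antigen against 35.4% ± 1.18 without, and 63.6% ± 0.761 against 38.96% ± 2.94 in WT libraries. These shares depend on the longest transcripts, of 8681 bases for Pfkp and 3730 for Pfkl. In CPM, Pfkp stayed above Pfkl with antigen, at means of 159 against 135 in Tmem175-/- and 172 against 155 in WT libraries. Exons of Pfkm and Pfkp overlap those of Senp1 and Pitrm1 on the opposite strand, at 335% and 34.5% of the level of Pfkm and Pfkp. Whether counting used the strand is not given in the sources used here, so reads of these genes may be mixed. Pfkfb3 and Pfkfb4 make and break down fructose 2,6-bisphosphate, the activator of phosphofructokinase. Pfkfb3 had 741, 553 and 648 CPM in Tmem175-/- libraries with antigen against 79.98, 95.5 and 79.8 without, and 791, 724 and 763 CPM in WT libraries with antigen against 83.6, 87.7 and 89.4 without. This was a rise of 7.62-fold and 8.73-fold (adjusted p 1.84e-14 and 7.89e-15). Pfkfb4 fell by 0.34 on the log2 scale in Tmem175-/- co-cultures (adjusted p 8.12e-05) and had -0.12 in WT co-cultures (adjusted p 0.141), and Pfkfb3 held 92.02% ± 1.699 of the pair per kilobase in Tmem175-/- libraries with antigen against 54.9% ± 3.42 without.

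Glucose phosphate isomerase and the steps from aldolase to pyruvate kinase rose as well. Log2 fold changes in Tmem175-/- and WT co-cultures were 0.80 and 1.12 for Gpi1 (the isomerase), 1.36 and 1.59 for Aldoa (aldolase A), and 1.36 and 1.38 for Tpi1 (triose phosphate isomerase). They were 1.51 and 1.495 for Pgk1 (phosphoglycerate kinase), 0.54 and 0.82 for Pgam1 (phosphoglycerate mutase), 1.26 and 1.29 for Eno1 (enolase 1), and 1.28 and 1.34 for Pkm (pyruvate kinase). All 14 of these values passed the test, and in each the libraries with antigen lay above those without. Gapdh, often taken as a constant reference gene, had 2557, 2310.4 and 2492 CPM in Tmem175-/- libraries with antigen against 943, 936 and 919.9 without, and 2689.7, 2539 and 2606 CPM in WT libraries with antigen against 905, 1006 and 936 without. Its level thus rose 2.63-fold and 2.75-fold (adjusted p 1.10e-13 and 5.30e-14). The named copies of Gapdh, Pgk1, Eno1, Pgam1, Tpi1, Ldha and Aldoa each held at most 0.164% of the level of their parent gene.

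Enolase 2, the form known from neurons, fell with antigen. Eno2 had 4.34, 3.38 and 4.59 CPM in Tmem175-/- libraries with antigen against 11.3, 8.31 and 11.2 without, and 5.76, 6.07 and 6.36 CPM in WT libraries with antigen against 8.39, 6.52 and 8.41 without. It fell by 1.32 in Tmem175-/- and by 0.35 in WT co-cultures on the log2 scale (adjusted p 2.97e-09 and 0.0282). The groups did not overlap in either genotype, although the WT libraries came close, and the WT call was lost in 5 of 12 alternatives (adjusted p up to 0.120). Aldoc, the aldolase known from brain, had 7.31, 11.03 and 9.97 CPM in Tmem175-/- libraries with antigen against 7.17, 9.96 and 7.77 without, and 18.6, 20.4 and 19.5 CPM in WT libraries with antigen against 10.2, 10.3 and 10.1 without. It rose in WT co-cultures (0.94 ± 0.10, adjusted p 7.24e-09), and its knockout groups overlapped (0.18 ± 0.12, adjusted p 0.171).

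At the end of the pathway, Ldha and the exporter Slc16a3 rose as well. Ldha, the lactate dehydrogenase subunit whose promoter is shown above, had 1255, 1063 and 1184 CPM in Tmem175-/- libraries with antigen against 494, 489.9 and 493 without, and 1273, 1146 and 1239 CPM in WT libraries with antigen against 462, 527 and 475 without. The rise was 2.37-fold and 2.499-fold (adjusted p 2.58e-10 and 1.10e-10). Slc16a3 (MCT4), which exports lactate, had 175, 147 and 162 CPM in Tmem175-/- libraries with antigen against 16.7, 22.2 and 17.5 without, and 201, 172 and 198 CPM in WT libraries with antigen against 17.6, 26.02 and 20.8 without. It rose 8.63-fold and 8.84-fold (adjusted p 5.44e-12 and 3.74e-12), Slc16a1 (MCT1) rose 2.48-fold and 2.26-fold, and the share of Slc16a3 per kilobase was 74.6% ± 0.831 in Tmem175-/- libraries with antigen against 45.7% ± 2.69 without. Pdk1, a kinase that inhibits pyruvate dehydrogenase, rose slightly in WT co-cultures (0.22 ± 0.079, adjusted p 0.0182) and did not pass the test in Tmem175-/- co-cultures (0.16 ± 0.079, adjusted p 0.0863). Its libraries with and without antigen overlapped in both genotypes, and the WT call was lost in 2 of 12 alternatives.

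**Figure D3:**
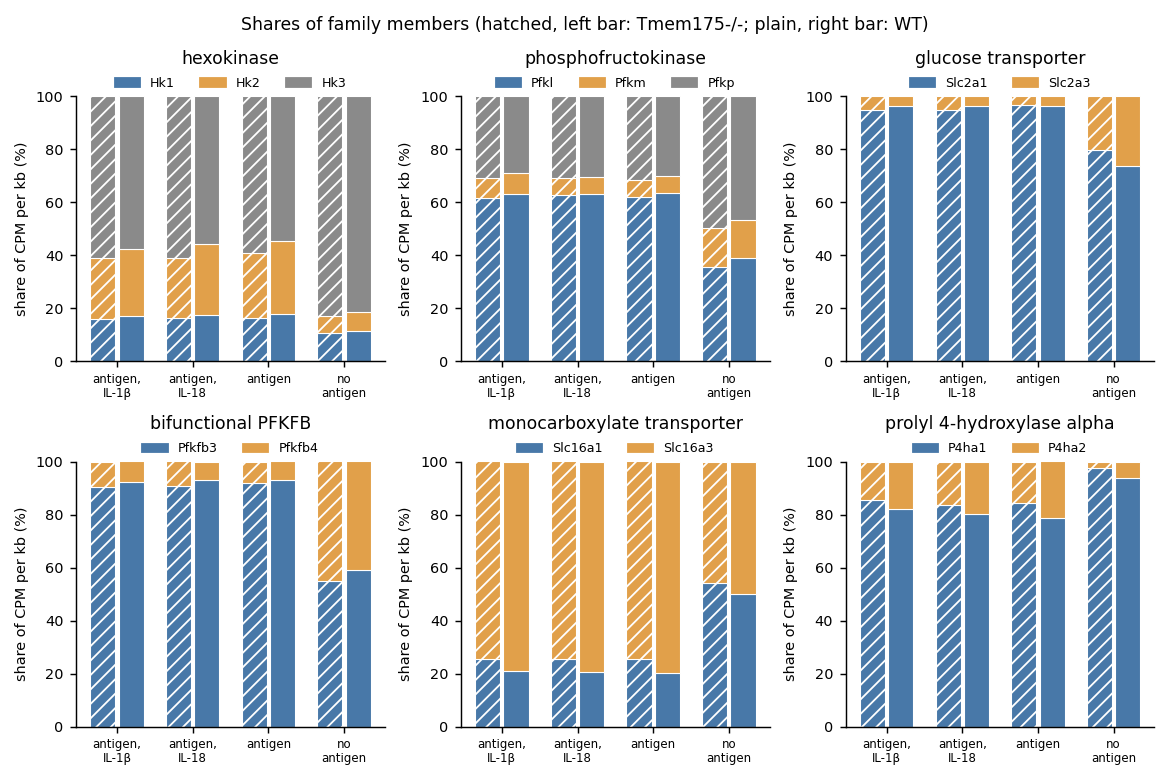
Mean share (%) of each family member in the summed CPM per kilobase of its family, in the 8 groups, with Tmem175-/- as hatched left bars and WT as plain right bars. With antigen Slc2a1, Pfkfb3, Pfkl, Slc16a3, Hk2 and P4ha2 take larger shares than without antigen, in both genotypes.

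The genes of oxygen sensing rose in both genotypes. Hif1a, which encodes the regulated subunit of HIF-1, had 375, 442 and 427 CPM in Tmem175-/- libraries with antigen against 107, 116 and 107 without, and 496, 535 and 537 CPM in WT libraries with antigen against 121, 124 and 122 without. Its transcript rose 3.77-fold and 4.28-fold (adjusted p 7.78e-22 and 1.21e-22), and the protein was not measured. Of the prolyl hydroxylases that mark HIF for destruction, and are themselves induced by HIF, Egln3 (PHD3) had 32.7, 26.7 and 29.9 CPM in Tmem175-/- libraries with antigen against 1.52, 3.35 and 2.11 without, and 37.9, 29.5 and 33.8 CPM in WT libraries with antigen against 2.37, 7.05 and 3.79 without. Egln3 rose by 3.69 ± 0.29 and 2.93 ± 0.25 on the log2 scale (adjusted p 2.51e-09 and 9.81e-09), and Egln1 (PHD2) by 0.74 and 0.90. Among other HIF regulators, Epas1 (HIF-2α) fell by 3.31 in Tmem175-/- and 2.46 in WT co-cultures, and Cited2, which competes with HIF for its co-activator, by 1.37 and 1.36, while Arnt, the partner subunit of HIF, rose by 0.50 and 0.60.

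Of the 11 HIF targets outside glycolysis, 10 rose with antigen in Tmem175-/- co-cultures and all 11 in WT co-cultures. Bnip3, a mitophagy receptor, had 196, 156 and 177 CPM in Tmem175-/- libraries with antigen against 25.99, 30.6 and 26.8 without, and 230.2, 192 and 216 CPM in WT libraries with antigen against 25.96, 38.1 and 29.1 without (6.35-fold and 6.85-fold, adjusted p 6.33e-11 and 3.14e-11). P4ha2, a collagen prolyl hydroxylase subunit, had 25.7, 24.7 and 29.5 CPM in Tmem175-/- libraries with antigen against 1.33, 1.81 and 1.39 without, and 48.1, 32.8 and 45.7 CPM in WT libraries with antigen against 3.65, 3.67 and 4.03 without. Its rise of 17.7-fold and 11.1-fold (adjusted p 2.11e-10 and 1.03e-10) compares with 2.599-fold and 2.76-fold for P4ha1, another subunit of this enzyme. Vegfa, the growth factor of blood vessels, had 288, 287 and 313 CPM in Tmem175-/- libraries with antigen against 84.01, 134 and 91.5 without, and 396, 391 and 405 CPM in WT libraries with antigen against 105, 118 and 112 without (adjusted p 7.27e-10 and 5.25e-11). Ddit4 (REDD1), an inhibitor of mTORC1, rose 9.56-fold and 6.47-fold, and Ankrd37, an ankyrin repeat gene, 4.51-fold and 5.08-fold. Ankrd37 shares exonic sequence with Ufsp2 on the opposite strand, which had 1088% of its level and rose by 0.27 and 0.41 on the log2 scale. As for Pfkm and Pfkp, reads of these genes may be mixed, because the use of strand in counting is not given. Ndrg1, a stress-response gene, rose 3.75-fold and 5.18-fold, Kdm3a, a histone demethylase, 2.05-fold and 2.05-fold, and Higd1a, a mitochondrial protein, 2.41-fold and 2.14-fold. Mxi1, an antagonist of MYC, rose in WT co-cultures (0.52 ± 0.053, adjusted p 9.60e-10), and its knockout groups overlapped (0.024 ± 0.053, adjusted p 0.702).

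Adm, which encodes the vasodilator adrenomedullin, was near the limit of detection. It had 28, 29 and 36 counts in Tmem175-/- libraries with antigen against 1, 1 and 0 without, and 35, 41 and 42 counts in WT libraries with antigen against 8, 5 and 8 without. The ratio of summed counts, scaled for library size, was 43.1 (exact 95% interval 11.6 to 361) in Tmem175-/- and 5.57 (3.48 to 9.33) in WT co-cultures, where the intervals cover counting error only. Both intervals lie above 1, and the ratio in Tmem175-/- co-cultures rested on 2 counts without antigen.

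**Figure D4:**
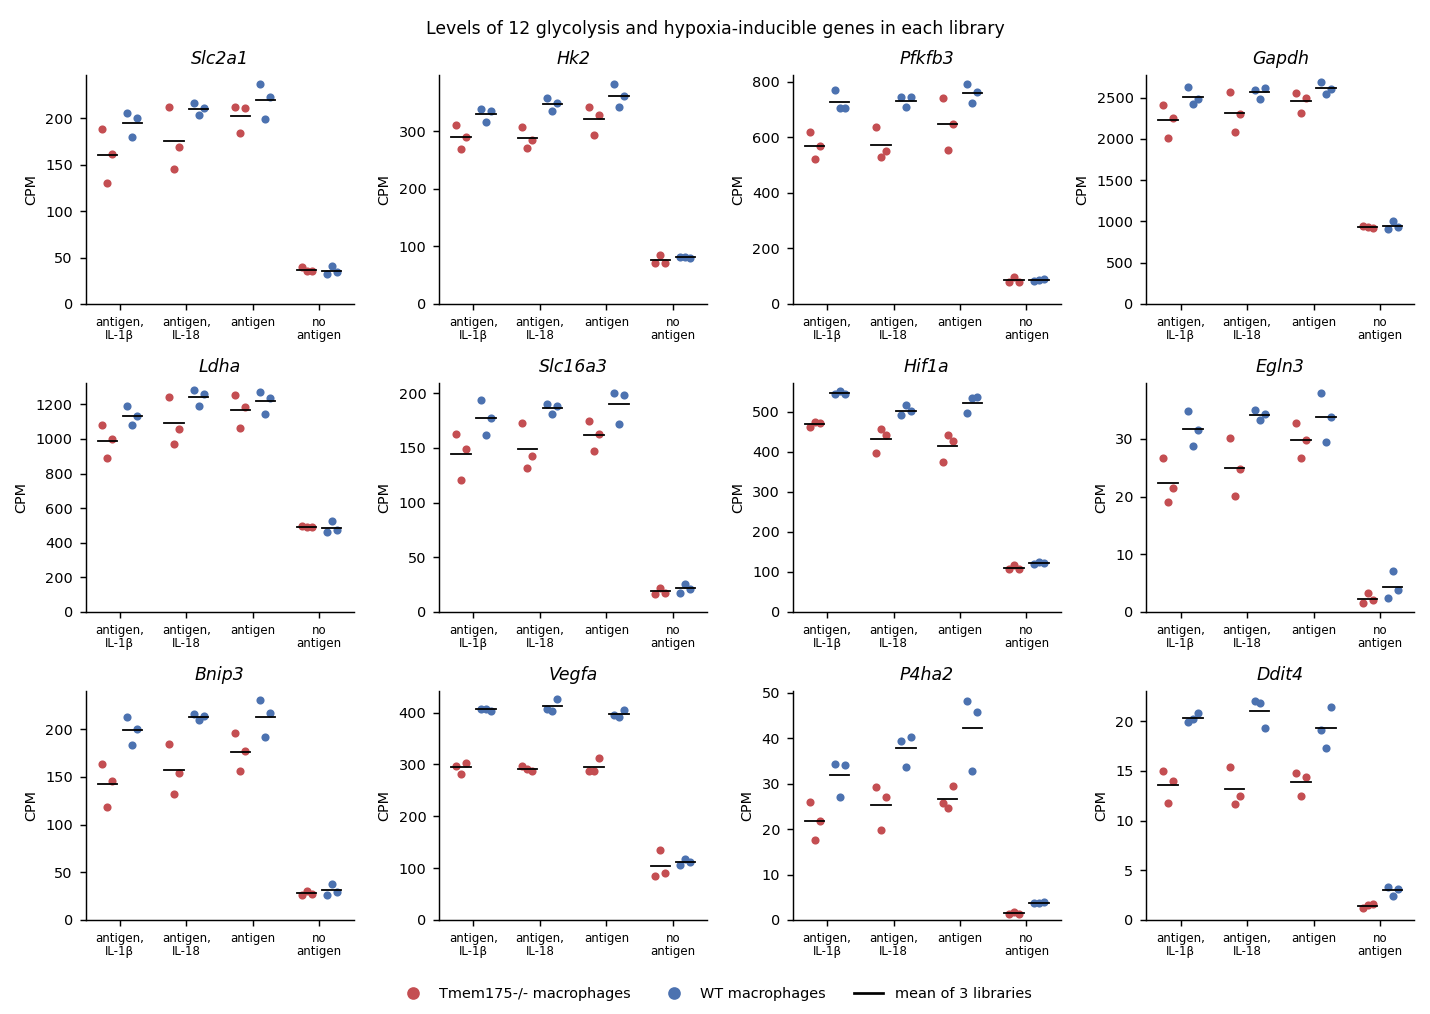
CPM of 12 of the 38 genes in each library (points) with the mean of 3 libraries (line), in Tmem175-/- (red) and WT co-cultures (blue). The libraries with antigen lie above those without for all 12 genes. For Vegfa, P4ha2, Ddit4, Hif1a and Hk2 the Tmem175-/- libraries lie below the WT libraries in each condition with antigen. For Hk2 the closest libraries with antigen alone had 341.02 CPM in Tmem175-/- and 341.28 in WT.

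Set side by side, the HIF targets outside glycolysis had larger log2 fold changes with antigen than the enzymes: medians of 1.91 against 1.25 in Tmem175-/- and 2.34 against 1.29 in WT co-cultures. Those of oxygen sensing were 1.92 and 2.10, and those of transport and regulation 1.31 and 1.17. The ranges overlapped widely, with 0.52 to 3.47 for the HIF targets and -0.35 to 2.16 for the enzymes in WT co-cultures. These medians are descriptions of lists whose members were chosen with results known, and no test was made between the lists.

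With antigen, Tmem175-/- co-cultures had lower levels of many of the 38 genes than WT co-cultures. With antigen alone 9 were lower and 1 higher, where 7.62% of all genes tested were lower, 7.7% higher and 15.3% either. With antigen and IL-1β 18 were lower and 0 higher (all genes 6.55% lower, 7.22% higher, 13.8% either), and with antigen and IL-18 18 were lower and 0 higher (all genes 10.3% lower, 9.89% higher, 20.2% either). The differences were small next to the antigen response: the median log2 fold change of the 38 genes, Tmem175-/- over WT, was -0.17 with antigen alone, -0.23 with IL-1β and -0.24 with IL-18, against medians of all genes between 0.0042 and 0.0053. No library is shared between the 3 comparisons, and the log2 fold change was negative in all of them for 33 of the 38 genes and for 28.8% of all genes. 

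**Figure D5:**
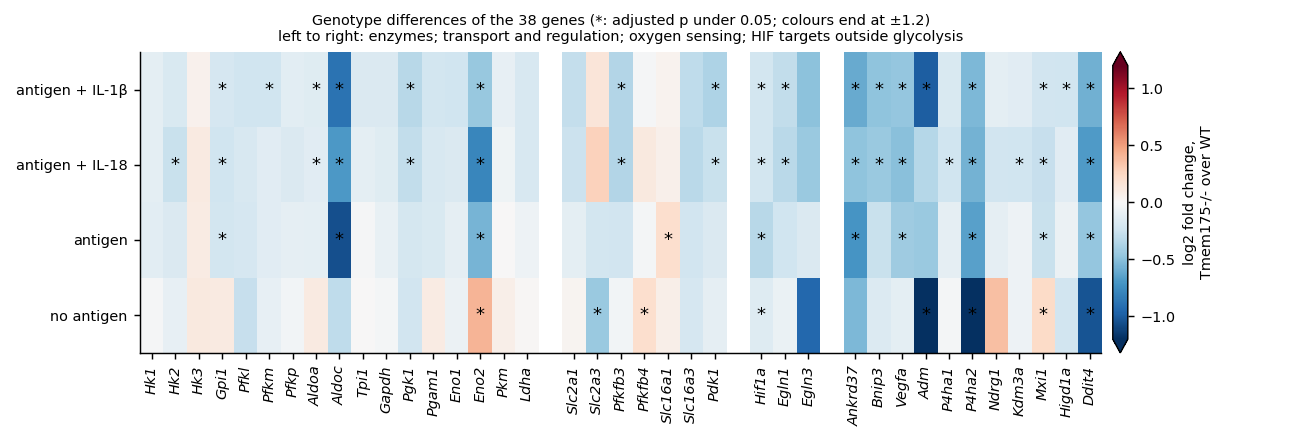
Log2 fold change, Tmem175-/- over WT, of the 38 genes (columns, ordered by role) in the 4 conditions (rows), with blue for lower in Tmem175-/-, colours ending at ±1.2 and stars for an adjusted p under 0.05. Stars with antigen stand on blue cells except for Slc16a1 with antigen alone, and the fitted values of Adm and P4ha2 without antigen lie beyond the end of the scale.

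The counts with a cytokine depended on single libraries. Leaving out 1 library at a time gave 9 to 26 genes with IL-18 and 8 to 20 with IL-1β. The IL-18 count over all genes also fell without WT replicate 3, as given further below. Shares of all genes in the other fits with 1 library left out are not given here. With IL-18, the count was 9 without Tmem175-/- replicate 2, and 10 without Tmem175-/- replicate 3, WT replicate 1 or WT replicate 3. With IL-1β, it was 8 without Tmem175-/- replicate 2, 10 without Tmem175-/- replicate 3, 8 without WT replicate 1 and 9 without WT replicate 3. Without all libraries numbered 2, 15 genes were called with antigen alone, where 14.3% of all genes were, 23 with IL-1β, where 12% were, and 20 with IL-18, where 21.6% were.

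Gene by gene, 9 were lower in Tmem175-/- co-cultures in all 3 antigen conditions: the enzymes Gpi1, Aldoc and Eno2, then Hif1a, and the HIF targets Ankrd37, Vegfa, P4ha2, Mxi1 and Ddit4. That is 3 of 17 enzymes, 0 of 7 genes of transport and regulation, 1 of 3 of oxygen sensing and 5 of 11 HIF targets outside glycolysis. Of all 14099 genes tested, 3.8% were called lower in all 3. Vegfa had 296, 282 and 304 CPM in Tmem175-/- libraries with antigen and IL-1β against 408, 407 and 404 in WT, 296, 291 and 287 against 408, 402 and 425 with IL-18, and 288, 287 and 313 against 396, 391 and 405 with antigen alone. All 9 knockout libraries lay below all 9 WT libraries, and the log2 fold changes in this order of conditions were -0.47 ± 0.10, -0.50 ± 0.10 and -0.43 ± 0.10 (adjusted p 0.00564, 0.00271 and 0.00957). Ddit4 had 14.96, 11.8 and 13.96 CPM in Tmem175-/- libraries with antigen and IL-1β against 19.9, 20.2 and 20.8 in WT, 15.4, 11.6 and 12.4 against 22.03, 21.8 and 19.3 with IL-18, and 14.8, 12.4 and 14.4 against 19.1, 17.3 and 21.5 with antigen alone. Here too the genotypes did not overlap (-0.58 ± 0.10, -0.68 ± 0.10 and -0.47 ± 0.10, adjusted p 1.66e-04, 1.62e-05 and 0.00154).

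Hif1a itself had 463, 474 and 471 CPM in Tmem175-/- libraries with antigen and IL-1β against 543, 551 and 543 in WT, and 397, 457 and 441 against 491, 516 and 501 with IL-18. With the values for antigen alone given above, it was lower in all 3 conditions, with log2 fold changes of -0.22 with IL-1β, -0.22 with IL-18 and -0.33 with antigen alone (adjusted p 0.00301, 0.00225 and 1.87e-05). No knockout library reached a WT library of the same condition. Aldoc had 11.8, 11.5 and 10.8 CPM in Tmem175-/- libraries with antigen and IL-1β against 21.96, 19.96 and 21.1 in WT, and 10.3, 10.8 and 11.9 against 16.8, 19.4 and 17.2 with IL-18. It had the largest fold of the 38 genes with antigen alone (-1.06 ± 0.10, adjusted p 1.82e-08), and was also lower with IL-1β (-0.88) and IL-18 (-0.69). Ankrd37, at 6.33, 5.66 and 5.91 CPM in Tmem175-/- libraries with antigen alone against 10.4, 9.22 and 9.86 in WT, had log2 fold changes of -0.61 with IL-1β, -0.48 with IL-18 and -0.71 with antigen alone. Its overlapping neighbour Ufsp2, at a mean of 65.8 CPM against 6.05 for Ankrd37, was called in none. The part of Ufsp2 reads in the Ankrd37 values was not tested. In that order of IL-1β, IL-18 and antigen alone, P4ha2 had -0.54, -0.57 and -0.65, Eno2 -0.46, -0.78 and -0.56, Mxi1 -0.23, -0.27 and -0.27, and Gpi1 -0.20, -0.24 and -0.22. The calls of Gpi1, Aldoc, Hif1a, Ankrd37, Vegfa, Mxi1 and Ddit4 held in each of the 12 alternatives per comparison. With IL-1β those of Eno2 and P4ha2 were lost in 6 of 12 each, with IL-18 that of P4ha2 in 3, and with antigen alone that of Eno2 in 2 and that of P4ha2 in 1.

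Other genes were called in some conditions. Bnip3 had 163, 118 and 146 CPM in Tmem175-/- libraries with antigen and IL-1β against 213, 184 and 200.4 in WT (-0.48 ± 0.14, adjusted p 0.0278) and 184, 132 and 154 against 216, 210.1 and 213 with IL-18 (-0.44 ± 0.14, adjusted p 0.0313). With antigen alone its libraries overlapped (-0.27 ± 0.14, adjusted p 0.220). Pgk1, Pfkfb3, Pdk1, Egln1 and Aldoa were likewise lower with each cytokine, at -0.34, -0.35, -0.37, -0.30 and -0.14 with IL-1β and -0.30, -0.36, -0.26, -0.32 and -0.14 with IL-18. Of the 3 conditions, Hk2, P4ha1 and Kdm3a passed the test with IL-18, and Pfkm, Higd1a and Adm with IL-1β. Of 12 alternatives, the call under IL-1β was lost in 9 for Pfkm, 6 for Aldoa, 5 each for Bnip3, Egln1 and Adm, 4 for Higd1a and 3 each for Pgk1 and Pfkfb3, and held in all for Pdk1. Under IL-18 it was lost in 7 each for Bnip3 and Pgk1, 6 for Aldoa, 5 each for Egln1 and P4ha1, 4 each for Kdm3a and Pdk1 and 2 for Pfkfb3, and held in all for Hk2. For none of them did the genotype difference itself change with a cytokine in the test of cytokine responses given below. Among the enzymes with a mean of at least 598 CPM over all libraries, Gpi1 was lower in all 3 conditions, and Aldoa and Pgk1 in 2 each. The others, Gapdh, Pkm, Ldha, Eno1 and Tpi1, were called in none of the 3 conditions, with log2 fold changes between -0.24 and 0.0059. Slc2a1 and Slc16a3 were called in none either, at -0.28 and -0.30 with IL-1β, and Slc16a1 was higher with antigen alone (58.1, 53.3 and 57.1 CPM in Tmem175-/- libraries against 48.3, 46.5 and 51.8 in WT, 0.20 ± 0.054, adjusted p 0.00888).

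Between the lists, the HIF targets outside glycolysis had the more negative median in each condition: -0.47 against -0.20 for the enzymes with IL-1β, -0.34 against -0.17 with IL-18, and -0.27 against -0.13 with antigen alone. All 11 HIF targets had negative log2 fold changes in all 3, as had 15 of 17 enzymes. By calls, 8 of 11 HIF targets and 6 of 17 enzymes were lower with IL-1β, 8 and 6 with IL-18, and 5 and 3 with antigen alone. No test was made between the lists.

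Markers of other cells moved with genotype in the same libraries. With antigen, the 6 fibroblast markers summed to 15.2 to 59.1 CPM in the 9 Tmem175-/- libraries against 89.3 to 182 in the 9 WT libraries, and 5 of 6 were lower with antigen alone. The 5 dendritic cell markers summed to 7.92 to 12.2 CPM in these Tmem175-/- libraries against 20.9 to 28.4 in WT, with 2 of the 4 tested lower with antigen alone. The 5 plasma cell markers summed to 245 to 348 CPM in Tmem175-/- against 149.7 to 179 in WT libraries, with 3 higher and 1 lower with antigen alone. The 8 cell division genes summed to 357 to 417 CPM in Tmem175-/- against 286 to 333 in WT libraries, with 7 higher with antigen alone. The 8 neutrophil markers summed to 482 to 636 CPM in Tmem175-/- libraries with a cytokine against 349 to 408 in WT, and of the 8 markers 6 passed the test as higher under IL-1β and 5 under IL-18. Of the 6 macrophage markers 1 was higher with antigen alone, and they summed to 8234 to 9444 CPM in Tmem175-/- against 8344 to 9022 in WT libraries. The part of these cells in the genotype differences was not tested.

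The antigen response itself differed between genotypes for 6 of the 38 genes, tested as the difference of log2 fold changes, Tmem175-/- minus WT. Of the 38 genes 1 was higher and 5 lower, against 3.79% higher, 4.6% lower and 8.39% either of all genes tested. The rise of Gpi1 was smaller in Tmem175-/- co-cultures (difference -0.33 ± 0.060, adjusted p 6.47e-04), with 724, 691 and 738 CPM with antigen against 417, 417 and 405 without in Tmem175-/- and 841, 825 and 836 against 370.4, 405 and 375 in WT libraries. Tmem175-/- libraries of Gpi1 thus lay below WT libraries with antigen. Without antigen Gpi1 was not called between genotypes, and the closest libraries had 405.4 CPM in Tmem175-/- and 404.7 in WT. Mxi1 was called higher in Tmem175-/- co-cultures without antigen and lower with it. It had 45.9, 47.8 and 48.3 CPM with antigen against 49.4, 42.7 and 47.4 without in Tmem175-/- and 58.05, 54.9 and 58.2 against 37.9, 42.04 and 39.3 in WT libraries (difference -0.50 ± 0.075, adjusted p 6.00e-05). The differences were -0.97 ± 0.20 for Eno2 (adjusted p 0.00255), -0.75 ± 0.16 for Aldoc (adjusted p 0.00281) and -0.22 ± 0.067 for Aldoa (adjusted p 0.0348). The fitted difference of 2.73 ± 0.87 for Adm (adjusted p 0.0497) rested on the 2 counts of Tmem175-/- libraries without antigen. It missed 0.05 when any 1 of the 12 libraries was left out, and over all alternatives that gave one its adjusted p was 0.0218 to 0.193. The call of Aldoa was lost in 9 of 18 alternatives. Without the libraries numbered 2, 9 of the 38 genes were called, and 11.1% of all genes.

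Without antigen, the genotypes differed for 8 of the 38 genes, 3 higher and 5 lower in Tmem175-/- co-cultures, where 16.9% of all genes tested were called (9.62% higher, 7.25% lower). The count was 3 without Tmem175-/- replicate 3, 4 without WT replicate 2, 4 without WT replicate 3, and 15 without all libraries numbered 2, where 19.5% of all genes were called. Shares of all genes in the fits without antigen that left out 1 library are not given here. P4ha2 had 1.33, 1.81 and 1.39 CPM in Tmem175-/- against 3.65, 3.67 and 4.03 in WT libraries (-1.33 ± 0.40, adjusted p 0.0277). Ddit4 had 1.18, 1.54 and 1.62 CPM in Tmem175-/- against 3.36, 2.41 and 3.15 in WT libraries (-1.03 ± 0.21, adjusted p 7.99e-04). Both were thus called lower in all 4 conditions, as was Hif1a, at 107, 116 and 107 CPM in Tmem175-/- against 121, 124 and 122 in WT libraries (-0.15 ± 0.053, adjusted p 0.0447). Slc2a3 had 19.9, 17.3 and 17.2 CPM in Tmem175-/- against 22.9, 25.1 and 26.03 in WT libraries (-0.44 ± 0.12, adjusted p 0.0170). Adm summed to 2 counts in Tmem175-/- against 21 in WT libraries, a ratio of 0.0951 (exact 95% interval 0.0108 to 0.389). Higher in Tmem175-/- were Mxi1 (0.23 ± 0.054, adjusted p 0.00324), Pfkfb4 (0.20 ± 0.068, adjusted p 0.0397) and Eno2, at 11.3, 8.31 and 11.2 CPM in Tmem175-/- against 8.39, 6.52 and 8.41 in WT with overlapping libraries (0.41 ± 0.13, adjusted p 0.0307). The calls of Mxi1, Ddit4 and Adm held in each alternative that gave a value, whereas that of Hif1a was lost in 7 of 12, P4ha2 in 6, Pfkfb4 in 5, Eno2 in 4 and Slc2a3 in 3. The medians were -0.16 for the HIF targets and -0.010 for the enzymes. In the same libraries the plasma cell markers summed to 399.8 to 452 CPM in Tmem175-/- against 177 to 189 in WT (5 of 5 higher), the fibroblast markers to 12.5 to 28.4 against 27.8 to 97.4 (3 of 6 lower) and the cell division genes to 561 to 590.2 against 705 to 715 (7 of 8 lower). The dendritic cell markers summed to 1.76 to 2.899 CPM in Tmem175-/- against 6.23 to 6.74 in WT (3 of 4 tested lower) and the B cell markers to 7.93 to 9.74 against 10.7 to 11.5 (3 of 5 lower). Their part in these differences was not tested.

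Neither cytokine changed any of the 38 genes beyond the threshold when added to antigen. With IL-1β, 0 of 38 were called in Tmem175-/- and 0 in WT co-cultures (all genes 0.0426% and 0.0567%, of which 0.0426% and 0.0284% higher and 0% and 0.0284% lower), although 19 and 6 had an unadjusted p under 0.05, with lowest adjusted p of 0.154 and 0.382. With IL-18, 0 were called in both (all genes 0.213% and 0%, with Tmem175-/- 0.0496% higher and 0.163% lower), and 6 and 0 had an unadjusted p under 0.05. The share of all genes with an unadjusted p under 0.05 was not counted. The unadjusted counts here and below therefore have no background beside them and are not read as a result about the 38 genes. DESeq2's Wald test called 1 gene with IL-1β in Tmem175-/- co-cultures and 0 in the other 3 comparisons. Of the 19 genes with an unadjusted p under 0.05 with IL-1β in Tmem175-/- co-cultures, 16 had negative values, such as Ldha (-0.24 ± 0.085, adjusted p 0.242) and Kdm3a (-0.29 ± 0.082, adjusted p 0.163), and Hif1a, Aldoc and Slc2a3 had positive ones. Hif1a had 463, 474 and 471 CPM in Tmem175-/- libraries with antigen and IL-1β against 375, 442 and 427 with antigen alone, with no overlap (0.18 ± 0.050, adjusted p 0.154). The cytokine responses differed between genotypes for 0 of the 38 genes (0% of all genes for both cytokines), with 1 gene for IL-1β and 2 for IL-18 at an unadjusted p under 0.05. DESeq2's Wald test called 0 in both. The median log2 fold change of the 38 genes was -0.15 with IL-1β in Tmem175-/- and -0.071 in WT co-cultures, and -0.072 and -0.018 with IL-18. In Tmem175-/- co-cultures with IL-1β, 3 genes were called when Tmem175-/- antigen replicate 2 was left out.

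Other genes of the same pathways, from lists beside the 38, were measured beside them. Among 20 other hypoxia-inducible genes, 19 were tested. With antigen, 13 rose and 4 fell in Tmem175-/- co-cultures, and 14 rose and 4 fell in WT co-cultures. Of those that rose, Ak4, a mitochondrial adenylate kinase, did so by 4.56 in Tmem175-/- and 4.05 in WT co-cultures on the log2 scale, and Ero1a, an oxidase of the endoplasmic reticulum, by 3.72 and 3.98. Nfil3, a transcription factor, rose by 2.66 and 2.62. Between genotypes, 4 of the 19 were lower in Tmem175-/- co-cultures with antigen alone, 9 with IL-1β and 9 with IL-18, and 0 were higher. Among them were Ero1a with IL-1β (-0.43) and IL-18 (-0.49) and Plod2, a collagen lysyl hydroxylase, at -1.18, -1.02 and -1.03 with antigen alone, IL-1β and IL-18. Of 19 tested genes of glycolysis and pyruvate handling beside the 38, 6 rose and 7 fell with antigen in Tmem175-/- co-cultures and 7 rose and 7 fell in WT co-cultures (medians 0.051 and -0.0047). Between genotypes, 1 was higher and 4 lower with antigen alone, 1 higher and 3 lower under IL-1β, and 3 higher and 2 lower under IL-18. Of these, glycogen synthase Gys1 rose by 1.97 and 2.399 with antigen and was lower in Tmem175-/- co-cultures in all 3 antigen conditions (-0.45, -0.50 and -0.56), as was Pgm1, phosphoglucomutase, at -0.30, -0.39 and -0.32. Of the 7 genes of the pentose phosphate pathway, a branch that makes NADPH, 2 rose and 3 fell with antigen in each genotype. Their largest changes were those of Rpe, at 0.64 and 0.76.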

How the data were processed

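Poly(A) RNA of 24 co-cultures, 8 groups of 3 libraries, was sequenced. The deposited table holds raw counts of reads per Ensembl gene, unnormalised; per the submitters' processing notes the authors used fastp and the mouse build GRCm39, and the counting tool, its annotation and its use of strand are not given in the sources used here. Symbols were taken from the supplied tables, and 346 genes had none.

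Genes were kept with edgeR's filterByExpr, which left 14099 of 55487 genes and 99.9% of counts. One quasi-likelihood model (edgeR 4.0.16, limma 3.58.1, R 4.3.3, TMM factors, robust dispersion) was fitted to all 24 libraries with 16 residual degrees of freedom, and 13 contrasts were tested. The common biological coefficient of variation was 5.01%. A gene was called at an adjusted p under 0.05 (Benjamini-Hochberg over all genes tested). The standard error (SE) is the log2 fold change divided by the root of the F statistic. Levels are CPM, and levels between genes are compared per kilobase of the longest GENCODE vM21 transcript. A ratio of summed counts has an exact 95% interval for counting error only.

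Alternatives were DESeq2 1.42.0, its size factors, no filter, the compared groups alone, a replicate block, each library left out in turn, and all libraries numbered 2 left out. The same replicate number was not treated as a pairing in the main model. Correlations of deviations between libraries of the same number were all positive, at 0.0016 to 0.229, and no comparison had all 3 over 0.1. Whether libraries of the same number share a batch is not stated in the labels. The scripts were tested on simulated data. The members, the lists and the tests were chosen with earlier results of these data known. In report text, all 38 genes are given by role, with library values for those on which a comparison turns. Other lists contribute up to 4 called genes per comparison, if their average level reached 2 on the log2 CPM scale.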

Additional observations from a re-analysis of the deposited data

Results flagged for a closer look

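For 6 genes the response to antigen differed between Tmem175-/- and WT co-cultures by a test of the difference itself, given here as log2 fold change in Tmem175-/- minus that in WT. The rise of Gpi1 was smaller by this measure, at -0.33, and that of Aldoa at -0.22. Aldoc, at -0.75, and Mxi1, at -0.5, rose in WT co-cultures and did not pass the test in Tmem175-/- co-cultures. Eno2 fell with antigen in both, and by more in Tmem175-/- co-cultures, at -0.97, although its fall in WT co-cultures missed the threshold in 5 of 12 alternatives. Adm had 2.73, which rested on 2 counts in Tmem175-/- libraries without antigen against 21 in WT libraries without antigen.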

How the results depend on the processing

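For the 38 genes, alternatives were compared where a gene was called in the main fit or in the alternative. None of these values reversed its direction: 1441 kept the call, 153 lost it and 134 gained one. Values called in neither fit, and genes of other lists, were not compared in this way. Of the 38 genes, 15 were called between genotypes without antigen when all libraries numbered 2 were left out, against 8 with all libraries. In Tmem175-/- co-cultures, IL-1β added to antigen called 3 genes without the libraries numbered 2, 1 with DESeq2's Wald test, 2 with no filter on low counts and 5 with the replicate block, and IL-18 called 3 without the libraries numbered 2, 2 with no filter and 1 with the block, against 0 for both. In WT co-cultures IL-1β called 2 without the libraries numbered 2 and 2 with the block, against 0. Over all genes tested, the cytokine counts moved widely over the alternatives: 0 to 561 for IL-18 in Tmem175-/- co-cultures against 30, 1 to 422 for IL-1β in Tmem175-/- against 6, 2 to 102 for IL-1β in WT against 8, and 0 to 2 for IL-18 in WT against 0. The genotype count with IL-18 was 1867 without WT replicate 3, against 2851. Leaving out 1 library at a time gave 8 to 20 genes for the genotypes with IL-1β, 9 to 26 with IL-18, 9 to 11 with antigen alone and 3 to 11 without antigen. It gave 34 to 36 for antigen in each genotype, 4 to 6 for the difference of antigen responses and 0 to 3 for IL-1β in Tmem175-/- co-cultures. With the replicate block the genotype counts were 23 with IL-1β, 20 with IL-18, 14 with antigen alone and 12 without antigen. Apart from the IL-18 count of 1867 above, genotype counts over all genes in the block fit and with 1 library left out are not given here. The counts of the 38 genes in these fits are therefore not read as a result about them. The same replicate number is no stated pairing, although every library deviated most like that of its own number in 4 of 10 comparisons. The cause of these shifts was not tested. At this depth Adm was the gene most limited by counts, and where 3 libraries per group gave no call, a difference may still exist.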

Other observations

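Beside the 38 genes, further hypoxia-inducible genes moved with antigen. Mif, a cytokine that macrophages store, rose by 2.08 on the log2 scale in Tmem175-/- and 2.01 in WT co-cultures. Fam162a, a mitochondrial protein, rose by 1.73 and 1.76. Bhlhe40, a transcriptional repressor, fell by 1.68 and 1.11. The antigen response also differed between genotypes for Bhlhe40 (-0.57 ± 0.16, Tmem175-/- minus WT, adjusted p 0.0389), for Plod2 (-0.98 ± 0.28, adjusted p 0.0304) and for Gys1 (-0.43 ± 0.12, adjusted p 0.0240). It differed in the other direction for Slc2a6, a further glucose transporter family member (0.55 ± 0.13, adjusted p 0.00625).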
